A study of Mus musculus with 12 samples.

Results

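The cytosolic sulfotransferase genes of mouse liver were followed through survivin deletion and liver cancer. The set was 9 genes, Sult1a1, Sult1b1, Sult1c2, Sult1d1, Sult1e1, Sult2a2, Sult2b1, Sult3a1 and Sult5a1, taken by their gene name on the array out of 34844 names. All 9 were present, with 12 probes between them, and all 9 were among the 26505 genes tested. The set was chosen by family, and it was selected on measured values in so far as the differences of Sult3a1 and Sult1e1 between the HCC groups were already known. Values in that comparison are therefore a description without a test.

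Total RNA of 4 groups of 3 arrays was measured on single-colour Agilent arrays. The groups were hepatocellular carcinoma (HCC) of Mxcre+ mice, labelled survivin deleted; HCC of Mxcre- mice, labelled survivin wild type; non-cancerous liver of Mxcre+ mice; and non-cancerous liver of Mxcre- mice. They are called deleted HCC, wild-type HCC, deleted liver and wild-type liver here. All mice were labelled male and of strain 129/SV/B6, and all groups, the Mxcre- ones included, received N-nitrosodiethylamine (50 mg/kg at 2 weeks of age), poly(IC) 8 months later, and irradiation with bone marrow transplantation. Tissue was taken 1 week after poly(IC) and 2 months after the transplantation. Mx-Cre is a recombinase under an interferon-inducible promoter that poly(IC) switches on in hepatocytes and in blood cells, so the deletion need not be limited to one cell type. Blood cells in these mice may come from the graft, which was given before poly(IC). Whether graft cells carry the deletion was not tested. Nothing in the labels tells if the 3 arrays of a group stand for 3 mice, so p-values measure the spread between these arrays, which may be technical.

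Sulfotransferases move a sulfonate group from the donor PAPS to hormones, bile acids, neurotransmitters and drugs, which usually makes them more water soluble and easier to excrete. In the liver they work beside the cytochrome P450 enzymes and the UDP-glucuronosyltransferases. Several of them, among them Sult3a1 and the Sult2a enzymes, are known as female-biased genes of mouse liver.

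Several Sult genes are near-identical copies, and the probe letters show how few bases set apart the probes of the Sult2a cluster. The following 30-base stretches of the 60-base probes are aligned without gaps, with bases that differ from the Sult2a2 probe in capitals; all lie on chromosome 7 of mm9, per the scanner files.
Sult2a2: ttgttctatatcttgaatacctgaatatgg
Sult2a1: ttgttGtGtatcttgaatacctAGatGtgg
Sult2a4: ttgttctGtatcttgaatacctAGatGtgg
Over the whole overlap the Sult2a1 probe differed from the Sult2a2 probe at 5 of 59 bases and the Sult2a4 probe at 6 of 53. The array design lists transcripts of Sult2a2 and Sult2a5 for the Sult2a2 probe (chr7:14364926-14364985, plus strand), so its signal may come from either gene. It lists transcripts of both Sult2a1 and Sult2a4 for each of the other 2 probes, which are named here as the array names them. The Sult3a1 probe (chr10:33599125-33599184, plus strand) and that of its neighbour Sult3a2, named Gm4794 on the array (chr10:33499545-33499604, minus strand), are unlike each other, as their first 30 bases show.
Sult3a1: gtagaatattaatcaccacgtgaataaacc
Sult3a2: gagagtcaccggaatggaactgaaaacatc
Each of them is listed for its own gene alone. Whether the probes lie in coding or untranslated exon was not analysed here.

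The signal of each probe is given as log2 of the processed intensity minus the 75th percentile of its array, so 0 is the 75th percentile and 1 unit is a factor of 2 in signal. The main probes of 8 genes were well above background on all 12 arrays, and that of Sult2b1 on 11, the exception being wild-type liver replicate 1. No spot was saturated. Wild-type liver replicate 1 had the lowest detection, with 49.0% of spots well above background, against 69.2% to 83.4% on the other arrays. Slide 1 held replicate 1 of every group and slide 2 held replicates 2 and 3. The 75th percentile was at 1131 to 1766 intensity units on slide 1 and at 3343 to 3906 on slide 2. Values by slide stand beside most differences of the members described in detail. The number of arrays limits the precision.

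The levels of survivin itself (Birc5) put the labels of 2 arrays on slide 1 in doubt. Its main probe was at 0.06, 0.17 and -0.08 in deleted HCC and at 0.80, 0.82 and 1.76 in wild-type HCC, and at 2.42, -0.10 and -1.07 in deleted liver and 2.85, 0.51 and 0.76 in wild-type liver. The library labelled deleted liver replicate 1 was thus far above the other deleted arrays. Within slide 1 the main probe was still lower in deleted than in wild-type tissue, with -0.74 in HCC and -0.43 in liver. On the other 2 Birc5 probes wild-type HCC was at -2.03, -0.85 and 0.09 and at -0.57, 0.57 and 1.41, so that the library labelled wild-type HCC replicate 1 was the lowest of its group on both. On slide 1 these 2 probes differed, deleted minus wild-type, by -0.65 and 0.33 in HCC and by -0.10 and -0.06 in liver. The deposited value table exchanges the arrays labelled deleted liver replicate 1 and wild-type HCC replicate 1. Each of these 2 columns correlated at r = 1.00 with the other's scanner values, and at 0.964 and 0.970 with its own. Several results that rest on these arrays, both on slide 1, are given with the pair exchanged as well. The others are given as labelled only and may depend on the pair. The XIST probe of highest signal was at -6.18 and -6.33 in deleted HCC, -1.88 and -2.13 in wild-type HCC, -5.96 and -6.09 in deleted liver and -1.31 and -1.87 in wild-type liver on slide 2, while the Y-linked gene Eif2s3y was between 0.84 and 1.44 on all 8 of those arrays. On slide 1 the XIST probe was at -4.89 in deleted HCC, -4.12 in wild-type HCC, -2.32 in deleted liver and -1.77 in wild-type liver. Eif2s3y was lower on slide 1 than on slide 2. It was at -0.02 in deleted HCC, -1.51 in wild-type HCC, -1.32 in deleted liver and -1.70 in wild-type liver. XIST therefore separated the genotypes on slide 2, in mice all labelled male. On slide 1 the genotypes overlapped as labelled and were apart with the doubtful pair exchanged. The part of XIST in the results below was not tested.

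Sult3a1, an amine sulfotransferase in mouse, differed most between the HCC groups. Its signal was 2.16, 0.20 and 2.02 in deleted HCC, against -1.50, -2.03 and -4.79 in wild-type HCC. All 3 deleted tumours lay above all 3 wild-type tumours, which spread over more than 3 units among themselves. The means were 1.46 ± 1.10 in deleted HCC and -2.77 ± 1.76 in wild-type HCC (SD, n = 3 each), a difference of 4.23 or 18.8-fold. It was 3.66 on slide 1 and 4.52 on slide 2. With the 2 doubtful arrays exchanged it was 3.22 and the groups overlapped, because the library labelled deleted liver replicate 1 stood at 1.52.

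In non-cancerous liver Sult3a1 was at 1.52, 3.28 and 2.82 in deleted liver, against 2.57, -0.16 and -2.34 in wild-type liver. The groups overlapped through wild-type liver replicate 1, the array with the fewest spots well above background. The difference was 2.52 ± 1.19 (SE; 5.72-fold), with an unadjusted p of 0.0586 and an adjusted p of 1.00 by limma with Benjamini-Hochberg adjustment over all genes tested. With slide as a block the limma p was 0.0474 unadjusted and 0.421 adjusted. The slides disagreed in direction, with -1.05 on slide 1 and 4.30 on slide 2. On slide 2 alone, with 2 arrays per group, both deleted livers lay above both wild-type livers and the limma adjusted p was 0.326. With the pair exchanged the liver difference was 1.51, and on slide 1 it was -4.08.

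By group mean, Sult3a1 stood highest in deleted liver (2.54 ± 0.91), then in deleted HCC (1.46 ± 1.10), wild-type liver (0.02 ± 2.46) and wild-type HCC (-2.77 ± 1.76; SD, n = 3 each). Each pair of neighbours in that order had overlapping arrays. The difference of wild-type HCC from wild-type liver was -2.80 ± 1.19 (SE; unadjusted p 0.0387 and adjusted p 1.00 by limma), with -4.08 on slide 1 and -2.16 on slide 2. With the pair exchanged that difference was -1.79. That of deleted HCC from deleted liver was -1.08 ± 1.19 (SE; unadjusted p 0.384 by limma), with opposite directions on slide 1 (0.64) and slide 2 (-1.94), and -0.07 with the pair exchanged. Both comparisons use HCC arrays whose Sult3a1 difference was known when the gene was chosen. Their p-values are therefore not independent of that choice.

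**Figure D1:**
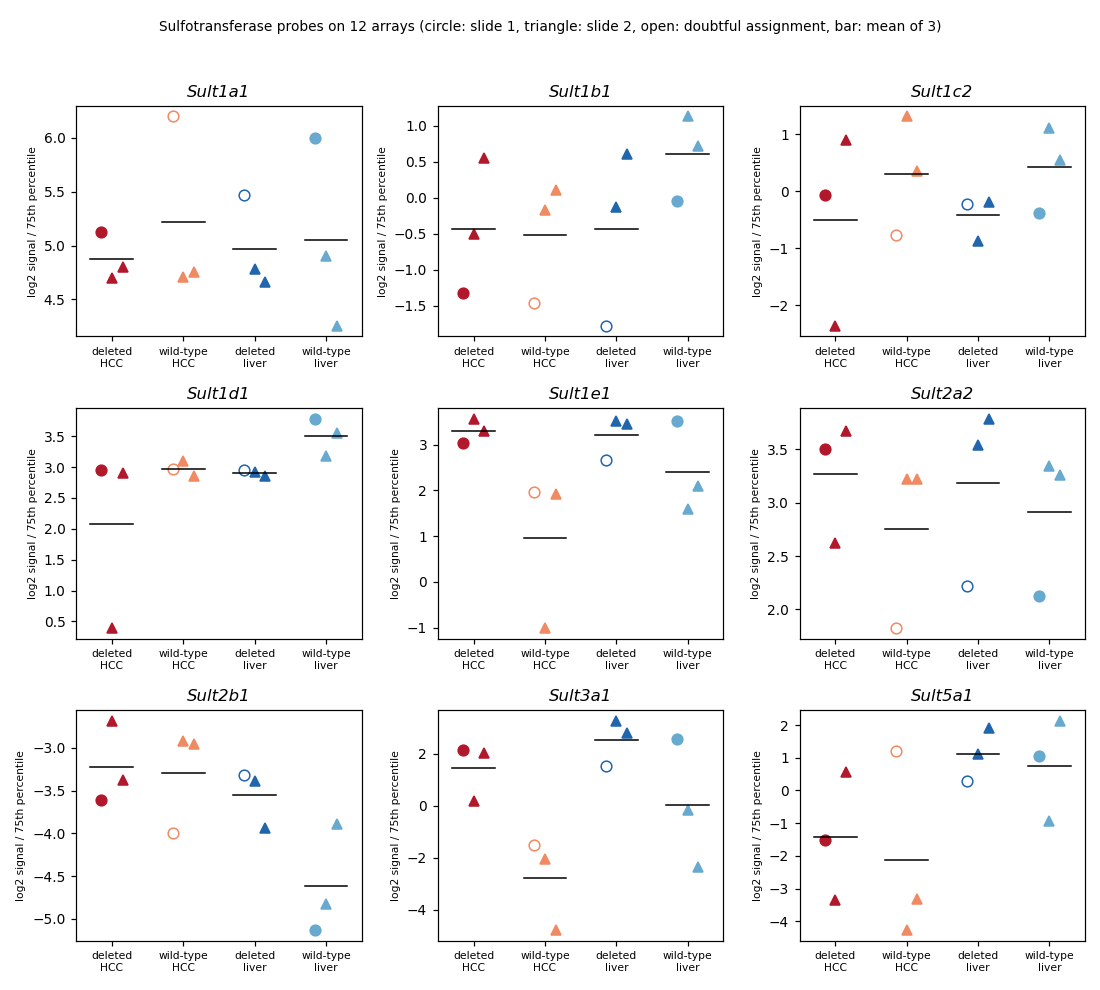
Log2 signal relative to the array's 75th percentile for the main probe of each of the 9 sulfotransferase genes, by group; circles are slide 1, triangles slide 2, open circles the 2 arrays of doubtful assignment, and bars the mean of 3 arrays. As labelled, Sult3a1 and Sult1e1 separate deleted HCC from wild-type HCC, which for Sult3a1 ends with the doubtful pair exchanged. The single low Sult1d1 point is deleted HCC replicate 2 at 0.39.

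The neighbouring gene Sult3a2 (Gm4794 on the array) followed a like order. It was at 1.44, 0.65 and 1.62 in deleted HCC, 0.20, -0.57 and -2.53 in wild-type HCC, 2.98, 3.09 and 2.28 in deleted liver and 4.25, -1.56 and -2.80 in wild-type liver. Deleted tumours again lay above wild-type tumours on every array, which ends with the doubtful pair exchanged, and wild-type liver replicate 1 again stood apart from the other wild-type livers. The difference between deleted HCC and wild-type HCC was 2.20, with 1.24 on slide 1 and 2.69 on slide 2. Between deleted liver and wild-type liver it was 2.82, with opposite directions on the slides (-1.28 and 4.87). Across the 12 arrays, after each slide's mean was subtracted, Sult3a1 and Sult3a2 correlated at r = 0.89. That is a description over arrays which share slides and groups.

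**Figure D2:**
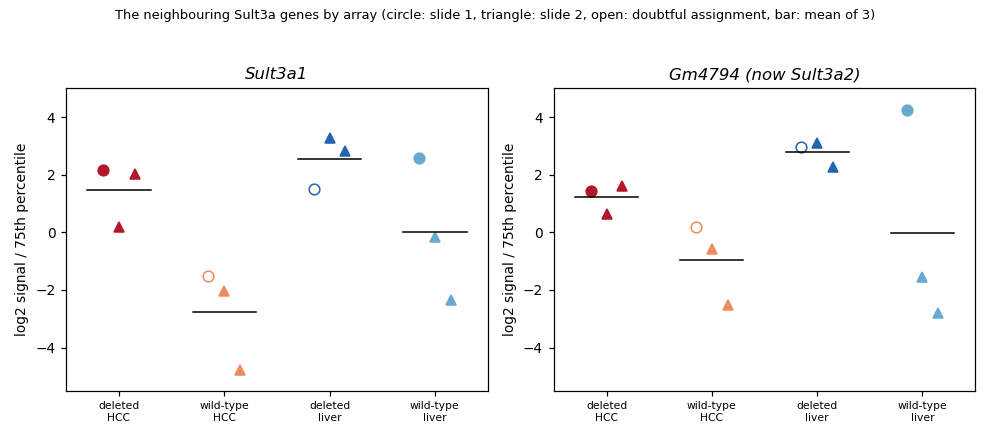
Log2 signal relative to the array's 75th percentile of Sult3a1 (left) and its neighbour Gm4794, now Sult3a2 (right), by group on 1 common axis scale; symbols as circles for slide 1, triangles for slide 2, open circles for the doubtful pair and bars for means of 3 arrays. In both panels wild-type liver holds 1 high array, at 2.57 and 4.25, and 2 low ones.

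Sult1e1, the oestrogen sulfotransferase, inactivates oestrogens by sulfation. It was at 3.04, 3.57 and 3.29 in deleted HCC, against 1.97, -1.01 and 1.92 in wild-type HCC. Every deleted tumour lay above every wild-type tumour, and the deleted tumours were close together (3.30 ± 0.26, against 0.96 ± 1.71 in wild-type HCC; SD, n = 3 each). The difference was 2.34 or 5.05-fold, with 1.07 on slide 1 and 2.97 on slide 2. Wild-type HCC replicate 2 carried much of it, since without that array the difference was 1.35. The groups stayed apart with the doubtful pair exchanged, at a difference of 2.10, and of 0.37 on slide 1.

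In non-cancerous liver Sult1e1 was at 2.67, 3.52 and 3.44 in deleted liver, against 3.52, 1.60 and 2.10 in wild-type liver. The groups overlapped through the high wild-type replicate 1. The difference was 0.80 ± 0.75 (SE; unadjusted p 0.306 by limma), with -0.85 on slide 1 and 1.63 on slide 2. With the doubtful pair exchanged it was 0.57, and -1.55 on slide 1. The difference of wild-type HCC from wild-type liver was -1.44 ± 0.75 (SE; unadjusted p 0.0802 by limma), and -0.46 without wild-type HCC replicate 2. That of deleted HCC from deleted liver was 0.09, with 0.37 on slide 1 and -0.05 on slide 2. As for Sult3a1, the comparisons of HCC with liver are not independent of how the gene was chosen.

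Of the 9 genes, 2 had groups that did not overlap between deleted HCC and wild-type HCC, Sult3a1 and Sult1e1, both higher in deleted HCC. Over all genes tested 5.65% had such groups, 2.89% with deleted HCC higher, and 1 member remained with the doubtful pair exchanged. The rule used this contrast, so nothing is read from the count. By group mean 6 members were higher and 3 lower in deleted HCC, with a median of 0.08 against -0.02 over all genes tested. In 4 of 9 the sign was the same on both slides. The other members differed by 0.89 or less.

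**Figure D3:**
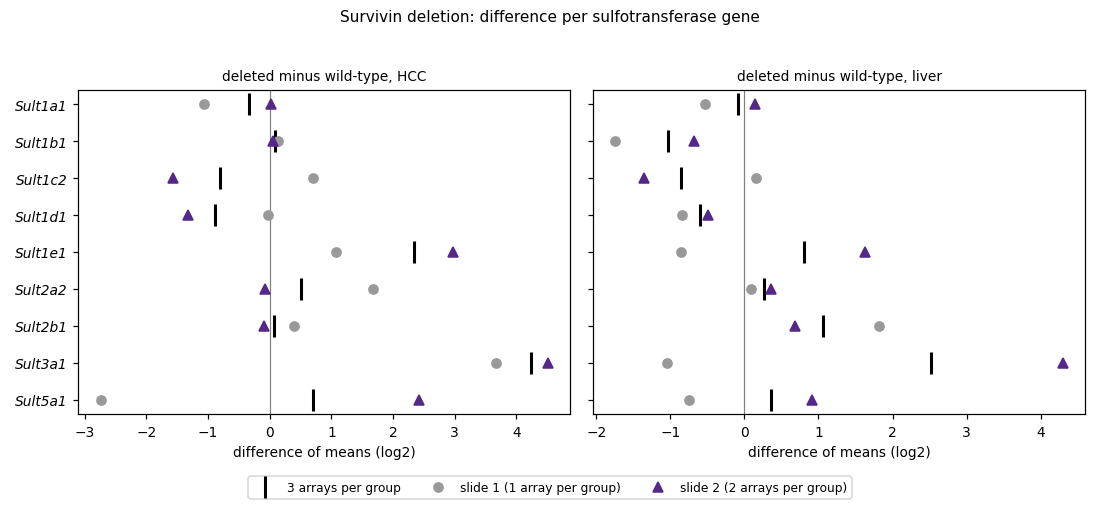
Difference of log2 signal, deleted minus wild-type, per sulfotransferase gene in HCC (left) and non-cancerous liver (right); ticks are means over 3 arrays per group, circles slide 1 and triangles slide 2. Sult3a1 is on the same side on both slides in HCC (3.66 and 4.52) and on opposite sides in liver (-1.05 and 4.30).

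In non-cancerous liver no member was called between deleted liver and wild-type liver (0 of 9 by limma at an adjusted p under 0.05), as no gene of the array was (0.0%). At an unadjusted p under 0.05 there were 1 of 9 members and 803 genes, or 3.03% of all tested. With slide as a block there were 3 of 9 members, Sult1b1, Sult2b1 and Sult3a1, and 3136 genes, or 11.8%, and again none was called. The member without the block was Sult2b1, a sulfotransferase of cholesterol and related sterols. It was at -3.32, -3.39 and -3.94 in deleted liver, against -5.13, -4.82 and -3.89 in wild-type liver. The deleted arrays were the higher ones, apart from a small overlap between the third replicates. The difference was 1.06 ± 0.43 (SE; unadjusted p 0.0310 by limma), with 1.81 on slide 1 and 0.69 on slide 2. Wild-type liver replicate 1, on slide 1, was not well above background.

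Sult1b1, which sulfates small phenols and thyroid hormones, ran the other way. It was at -1.78, -0.13 and 0.61 in deleted liver, against -0.04, 1.13 and 0.72 in wild-type liver. Within each slide the deleted arrays were lower, by 1.74 on slide 1 and 0.68 on slide 2. The overall difference was -1.04 with an unadjusted p of 0.158 by limma, and 0.0109 (adjusted p 0.416) in the fit with slide as a block. Over the 12 arrays, slide means subtracted, Sult1b1 and Sult2b1 correlated at r = -0.93. That was the lowest value among all pairs of measured cytosolic sulfotransferase genes, and it is a description. It includes the undetected Sult2b1 value of wild-type liver replicate 1.

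Sult1d1, which sulfates catecholamines and eicosanoids in mouse, was the 1 member whose liver groups did not overlap, against 9.59% of all genes tested and 3.25% in its direction. Its main probe was at 2.95, 2.91 and 2.85 in deleted liver, against 3.79, 3.18 and 3.55 in wild-type liver. The 3 deleted livers were nearly equal and all below the wild-type livers. The difference was -0.60 ± 0.57 (SE; unadjusted p 0.312 by limma). The second probe of the gene differed between slides more than between groups. It was at -3.47, 2.11 and 1.96 in deleted liver and -2.78, 1.66 and 1.91 in wild-type liver, with no common direction on the 2 slides.

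In wild-type mice 7 of 9 members were lower in HCC than in liver by group mean and 2 were higher. In 7 of 9 the sign was the same on both slides, the others being Sult1c2 and Sult5a1. The median difference was -0.53 against 0.04 over all genes tested. None of the 9 was called by limma (0.0% of all genes). At an unadjusted p under 0.05 there were 2 of 9 members, Sult2b1 and Sult3a1, and 444 genes, or 1.68%. With slide as a block there were 3 of 9 members, those 2 and Sult1b1, and 1613 genes, or 6.09%. These comparisons use the HCC arrays on which the set was drawn up, and the 4 comparisons share their groups pairwise. Sult3a1 is in both counts although its difference between the HCC groups was known when it was chosen.

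Sult5a1 had the largest difference among the members in wild-type mice. It was at 1.22, -4.27 and -3.33 in wild-type HCC, against 1.04, -0.93 and 2.13 in wild-type liver. The tumours of slide 2 were far below the livers of that slide, and the tumour of slide 1 was not. The difference was -2.88 ± 1.40 (SE; unadjusted p 0.0643 by limma), with 0.17 on slide 1 and -4.40 on slide 2. With the doubtful pair exchanged it was -3.19 overall and -0.75 on slide 1.

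In deleted mice Sult5a1 was at -1.53, -3.34 and 0.58 in HCC, against 0.29, 1.11 and 1.92 in liver. It was lower in HCC on both slides, by 1.82 on slide 1 and 2.90 on slide 2, and the groups overlapped through the third tumour. The difference was -2.54 ± 1.40 (SE; unadjusted p 0.0970 by limma). With the pair exchanged the groups no longer overlapped. The second probe of the gene was well above background on 3 arrays of 12 and gives no level elsewhere.

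Sult2b1 was higher in wild-type HCC than in wild-type liver. It was at -4.00, -2.92 and -2.95 in wild-type HCC, against -5.13, -4.82 and -3.89 in wild-type liver. The groups overlapped only through the first tumour array and the third liver array. On each slide the tumours were higher, by 1.14 on slide 1 and 1.42 on slide 2. The liver value of slide 1 (-5.13) was not well above background. The slide 1 direction and the differences given here rest in part on that undetected value. The difference was 1.32 ± 0.43 (SE; unadjusted p 0.0106 and adjusted p 1.00 by limma). With the doubtful pair exchanged the groups did not overlap and the difference was 1.55.

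Sult1b1 was at -1.46, -0.18 and 0.10 in wild-type HCC, against -0.04, 1.13 and 0.72 in wild-type liver. On each slide the tumours were the lower ones, by 1.42 and 0.96. The difference was -1.11 with an unadjusted p of 0.131 by limma, and 0.0073 (adjusted p 0.752) with slide as a block. Sult1d1 was at 2.97, 3.09 and 2.86 in wild-type HCC, below all 3 wild-type livers by a mean of 0.53. It was the 1 member without overlap in this comparison, against 7.18% of all genes tested and 2.49% in its direction.

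Between deleted HCC and deleted liver 4 members were higher and 5 lower, with a median of -0.09 against -0.04 over all genes tested. None was called by limma (0.0% of all genes), and at an unadjusted p under 0.05 there were 0 of 9 members and 227 genes, or 0.856%. With slide as a block there were 0 of 9 members and 1162 genes, or 4.38%. No member had groups without overlap, against 4.53% of all genes tested. In 2 of 9 the sign was the same on both slides.

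**Figure D4:**
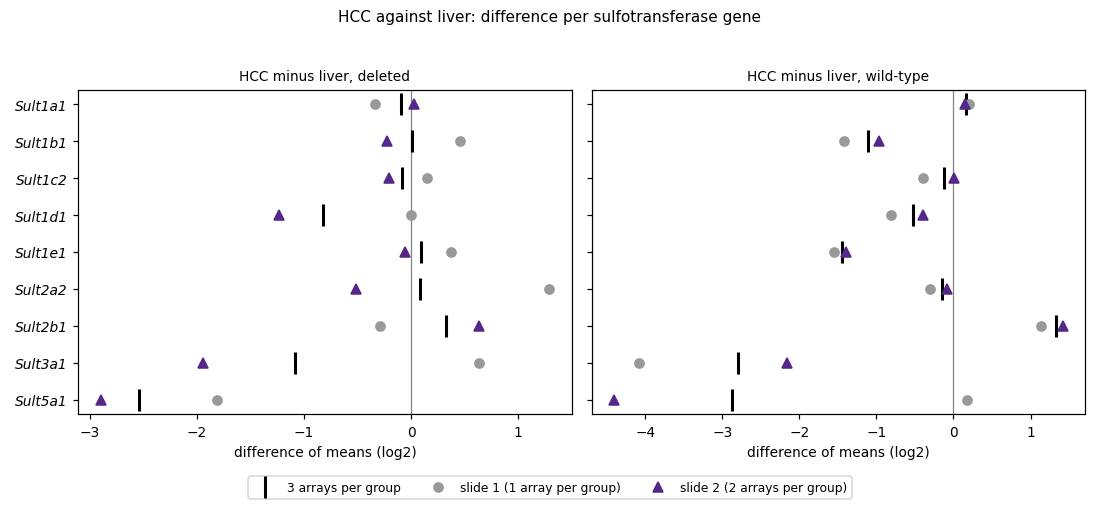
Difference of log2 signal, HCC minus liver, per sulfotransferase gene in deleted mice (left) and wild-type mice (right); ticks are means over 3 arrays per group, circles slide 1 and triangles slide 2. In wild-type mice 7 of 9 genes lie below 0, and Sult5a1 is at 0.17 on slide 1 and -4.40 on slide 2.

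The remaining members varied by array rather than by group. Sult1a1, the main phenol sulfotransferase, was at 5.13, 4.70 and 4.80 in deleted HCC, 6.20, 4.70 and 4.75 in wild-type HCC, 5.47, 4.78 and 4.66 in deleted liver and 6.0, 4.90 and 4.25 in wild-type liver. Replicate 1, on slide 1, was the highest of each group on this probe. The second probe, which overlaps the first by 8 bases on chromosome 7, had replicate 1 as the lowest of each group (in wild-type liver level with replicate 3), at 4.18, 3.65, 3.64 and 4.08 in the same order of groups. The probes thus disagreed between slides. Group differences were between -0.34 and 0.17 on the main probe and between -0.18 and 0.21 on the second.

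Sult2a2, a hydroxysteroid sulfotransferase, was at 3.51, 2.62 and 3.67 in deleted HCC, 1.83, 3.22 and 3.22 in wild-type HCC, 2.22, 3.54 and 3.79 in deleted liver and 2.13, 3.34 and 3.26 in wild-type liver. Slide 1 was low in all groups but deleted HCC. Its HCC difference of 0.51 came from slide 1 (1.68), with -0.07 on slide 2. The Sult2a1 probe differed by 0.27 between the HCC groups (0.12 on slide 1 and 0.35 on slide 2) and the Sult2a4 probe by 1.51 (3.00 and 0.76). On slide 2 both deleted tumours lay above both wild-type tumours on these 2 probes, while over all 3 arrays the groups overlapped. The groups overlapped on slide 2 for Sult2a2, so no difference was detectable there with 2 arrays a group.

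Deleted HCC replicate 2 stood apart in several members. Sult1d1 was at 2.95, 0.39 and 2.90 in deleted HCC, and Sult1c2, a SULT1C enzyme, at -0.07, -2.36 and 0.91. For each the second replicate was the lowest of all 12 arrays. Without it the difference between deleted HCC and wild-type HCC was -0.05 for Sult1d1, against -0.89 with it, and 0.12 for Sult1c2, against -0.81. By slide it was -0.02 and -1.33 for Sult1d1 and 0.70 and -1.57 for Sult1c2. In that array the mean of 12 hepatocyte markers was 4.86, the lowest of the 12 arrays (4.86 to 5.59), and the mean of 9 T and NK cell markers was 0.12, the highest (-2.38 to 0.12). The part of cell composition was not tested, and in bulk tissue fewer cells of a type and less RNA per cell cannot be told apart.

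Some cell type markers differed between deleted HCC and wild-type HCC. Median differences were small for cholangiocyte (-0.02), endothelial (0.08), stellate and fibroblast (0.04), erythroid (0.10) and neutrophil markers (0.14), and 0.39 for macrophage markers. T and NK cell markers were higher in 8 of 9 measured, with a median of 1.20 (0.15 on slide 1 and 1.74 on slide 2). Their mean log2 signal per array ran from -1.10 to 0.12 in deleted HCC, against -2.38 to -1.22 in wild-type HCC. With the doubtful pair exchanged their median was 0.70. The groups then overlapped, because the library labelled deleted liver replicate 1 stood at 0.02. B and plasma cell markers were higher in 5 of 6, with a median of 1.05 that was -0.78 on slide 1 and 1.89 on slide 2, and hepatocyte markers were lower in 8 of 12, with a median of -0.29. Sult3a1 and Sult1e1 were higher in the same arrays, and the part of these markers in that was not tested. In the liver comparison hepatocyte markers were lower in 11 of 12 in deleted liver, with a median of -0.30. Also lower there were 9 of 9 macrophage, 7 of 7 endothelial and 4 of 4 erythroid markers. The same held for 6 of 7 neutrophil and 6 of 8 stellate and fibroblast markers. T and NK cell markers were higher in 8 of 9, B and plasma cell markers in 5 of 6 and cholangiocyte markers in 3 of 6. All 12 hepatocyte markers were measured, with a mean of 4.86 or more on every array of the liver and HCC groups.

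Sulfotransferases need PAPS, which is made from sulfate by Papss1 and Papss2. Of 10 measured genes of PAPS and sulfate supply, 4 were higher and 6 lower in deleted HCC than in wild-type HCC, with a median of -0.08, and none was called by limma (0 at an unadjusted p under 0.05). Papss1 differed by -0.34 there. In wild-type mice 7 of 10 were lower in HCC than in liver; Suox, the sulfite oxidase that yields sulfate, differed by -1.14 (unadjusted p 0.053 by limma).

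Among 13 measured sulfatases and their activators, which remove sulfate groups, 8 were lower in wild-type HCC than in wild-type liver, with a median of -0.04. The heparan sulfate sulfatase Sulf2 was at -1.12 ± 1.09 in wild-type HCC and 0.67 ± 0.83 in wild-type liver (SD, n = 3 each), a difference of -1.79 (unadjusted p 0.009 and none of 13 called by limma). Of 18 measured Golgi sulfotransferases, which modify sugars and proteins, 11 were higher and 7 lower in wild-type HCC, with a median of 0.06, near that of all genes.

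Glucuronidation is the other large conjugation pathway of liver, and its genes were lower in wild-type HCC than in wild-type liver by group mean. Of 12 measured UDP-glucuronosyltransferase pathway genes 12 were lower, with a median of -0.46 (0.04 over all genes) and 3 at an unadjusted p under 0.05, none called by limma. Ugdh, which makes their UDP-glucuronate, was at 2.06 ± 0.23 in wild-type HCC and 3.18 ± 0.62 in wild-type liver (SD, n = 3 each). In deleted HCC against wild-type HCC 9 of the 12 were higher, with a median of 0.20. Of 10 measured targets of the drug receptors CAR and PXR, 8 were lower in wild-type HCC, with a median of -0.69. Cyp3a11, the classical PXR target, differed by -1.10 there and by 0.58 between deleted HCC and wild-type HCC.

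The list of genes biased to females in mouse liver held no member of the set. In deleted HCC against wild-type HCC 12 of 17 measured were higher, with a median of 0.53 against -0.02 over all genes, and none was called by limma (1 at an unadjusted p under 0.05, against 1.83% of all genes). The medians by slide were -0.21 and 0.26. Cyp3a41b, whose signal may include its near-identical copy Cyp3a41a, was at 1.90 ± 0.45 in deleted HCC and -0.64 ± 0.35 in wild-type HCC (SD, n = 3 each). The difference was 2.63 on slide 1 and 2.51 on slide 2, and 2.38 with the doubtful pair exchanged. Cyp3a41b differed by -1.90 between wild-type HCC and wild-type liver. Of 16 measured male-biased genes, 10 were lower in deleted HCC than in wild-type HCC, with a median of -0.16, and 16 of 16 were lower in deleted liver than in wild-type liver, with a median of -0.49. None was called by limma, and 0 passed at an unadjusted p under 0.05 in both comparisons.

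Of 20 measured nuclear receptors and liver factors, 8 were higher and 12 lower in deleted HCC than in wild-type HCC (median -0.16), and none was called by limma. The vitamin D receptor Vdr differed by 1.63, with -0.19 on slide 1 and 2.54 on slide 2. In wild-type mice the CAR gene Nr1i3 differed by -0.96 between HCC and liver, with -0.92 and -0.98 on the 2 slides, and an unadjusted p of 0.183 by limma. Of 11 measured growth hormone signalling genes, 7 were higher in deleted HCC than in wild-type HCC, with a median of 0.11 (-0.05 on slide 1 and 0.35 on slide 2).

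The genes whose signal was most like each member over the 12 arrays, slide means subtracted, were taken from 14784 named genes as a description. Sult1d1 was most like the hepatocyte enzymes Tdo2 (r = 0.97) and Glyat (0.97). Sult1d1 was at 0.39 in deleted HCC replicate 2 and at 2.85 or more on every other array, so that array weighs heavily in both values. Sult1c2 was lowest on that array as well (-2.36). Sult5a1 was most like Acsm2 (0.96) and Slc22a4 (0.96), and Sult2a2 was most like Maob (0.95) and Ugt3a1 (0.94). Sult1e1 was most like Tuba8 (0.95) and Rnu2 (0.91), and Sult3a1 was most like Kifc2 (0.90) and Steap2 (0.90). Sult1c2 was most like Tube1 (0.95) and Tstd1 (0.93), and Sult1b1 like Tmem47 (0.93) and Dhdh (0.92). For Sult2b1 they were Efna4 (0.92) and Igfbp1 (0.91), and for Sult1a1 Anapc7 (0.92) and Cobl (0.92). The points share arrays, slides and groups.

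The promoters of Sult3a1, Sult3a2 and Sult1e1 are shown from 250 bases before to 50 after the start site, from RefSeq on GRCm38.p6. These genes were picked because their HCC groups did not overlap as labelled. With the doubtful pair exchanged only Sult1e1 among them stayed without overlap. The motifs were searched on both strands and are in capitals where found: AGGTCA, the core site of many nuclear receptors; TTCNNNGAA, the STAT site; and TATAAA. The motifs did not overlap each other in these promoters.
Sult3a1: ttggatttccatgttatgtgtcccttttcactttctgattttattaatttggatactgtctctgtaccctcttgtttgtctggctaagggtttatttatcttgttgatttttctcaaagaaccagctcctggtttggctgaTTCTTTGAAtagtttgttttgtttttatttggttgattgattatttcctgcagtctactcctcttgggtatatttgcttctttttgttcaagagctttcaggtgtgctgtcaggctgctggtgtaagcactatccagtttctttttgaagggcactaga
Sult3a2: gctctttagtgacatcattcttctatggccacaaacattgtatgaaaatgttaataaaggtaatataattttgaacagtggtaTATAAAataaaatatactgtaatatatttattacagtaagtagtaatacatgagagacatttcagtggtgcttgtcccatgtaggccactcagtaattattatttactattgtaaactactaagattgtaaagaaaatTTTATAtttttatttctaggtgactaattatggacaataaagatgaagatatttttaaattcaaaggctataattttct
Sult1e1: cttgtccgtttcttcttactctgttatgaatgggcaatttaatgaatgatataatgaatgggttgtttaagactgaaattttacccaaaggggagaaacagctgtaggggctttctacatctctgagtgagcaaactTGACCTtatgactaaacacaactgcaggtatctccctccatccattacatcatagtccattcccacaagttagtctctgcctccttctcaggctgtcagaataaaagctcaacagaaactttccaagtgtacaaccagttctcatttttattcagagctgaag
They lie at chr10:33857472-33857771 (plus strand), chr10:33782066-33782365 (minus) and chr5:87591562-87591861 (minus). Sult3a1 held 1 match to TTCNNNGAA, 109 bases before the start, which 8.30% of all 32851 promoters hold. Sult1e1 held 1 match to AGGTCA on the opposite strand, starting 113 bases before the start, which 16.3% of promoters hold. Sult3a2 held 2 matches to TATAAA, which 13.6% hold. They were 167 bases before the start on the gene's own strand and 29 bases before it on the opposite strand. Of the 9 members 8 had a promoter in the table, and of these 2 held AGGTCA, 1 held TTCNNNGAA and 1 held TATAAA. A match describes letters in this window only.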

How the data were processed

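For 12 one-colour arrays the authors deposited spot intensity values; the submitters' processing notes name Agilent Feature Extraction 10.7. The deposited value table holds log2 values shifted to each array's 75th percentile and served as an alternative. Probe positions are on mm9, per the file headers.

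Here log2 intensity was averaged over unflagged spots of a probe, and the 75th percentile over non-control probes was subtracted. Probes not well above background throughout any group were dropped, and each gene was read from its probe of highest mean. limma 3.58.1 (R 4.3.3) was fitted to 26505 genes with 4 group means (8 residual degrees of freedom), with Benjamini-Hochberg adjustment and a threshold of 0.05, and was tested on simulated data. The 9 genes and all gene lists were chosen with earlier results of these data known. The genes named were all members, survivin, at most 3 genes per list and comparison by smallest unadjusted p, and the 2 genes most like each member. The neighbours in the Sult2a and Sult3a clusters and the sex-linked genes were picked with their values in view.

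Same-numbered arrays of different groups deviated together (18 of 18 correlations over 0.1, from 0.279 to 0.737). Within slide 2 it was 2 of 6 (-0.0908 to 0.284). The numbers pair arrays at least through the slide. With 2 arrays per group on slide 2, these values cannot tell whether same-numbered tumour and liver came from the same mouse. The main fit was unpaired. The alternatives were background correction by normexp, quantile normalization, filters, the probe rule, slide and replicate blocks, slide 2 only, the exchanged pair, other variance models and leaving out each array.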

Additional observations from a re-analysis of the deposited data

How the results depend on the processing

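Under 26 alternatives the number of members called by limma stayed at 0 in deleted liver against wild-type liver, in wild-type HCC against wild-type liver and in deleted HCC against deleted liver, and the lowest adjusted p values were 0.326, 0.302 and 0.553. The number of members higher in deleted HCC than in wild-type HCC was between 4 and 6. With the replicate block it was 6, with 0 members called in each of the other comparisons, so the block changed no call, while it raised the genes at an unadjusted p under 0.05 to 2803 in deleted liver against wild-type liver, against 803 without it. Sult3a1 kept its direction in all 4 comparisons, with 3.22 to 4.87 in deleted HCC against wild-type HCC and 1.33 to 4.30 in deleted liver against wild-type liver. Sult1e1 kept it between the HCC groups (1.35 to 2.97), and Sult5a1 kept it in HCC against liver, with -4.55 to -1.80 in wild-type and -3.54 to -1.58 in deleted mice. Sult1a1 changed sign in 3 to 8 alternatives of each comparison. Signal over background limited Sult2b1, which was 1 array short of full detection, and the second Sult5a1 probe.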
